A study of Mus musculus with 2 samples.

Results

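Cells were chosen by measured values: kept cells carried at least 2 unique molecules (UMIs) of Cd3d, Cd3e, Cd3g and Nkg7 together and little RNA of Car1, Elane, Irf8, Mcpt8 with Prss34, or S100a8 with S100a9. The choice was meant to gather T, NK and innate lymphoid cells, and it found 630 of the 10362 deposited cells, 306 of them from hypoxia and 324 from control. Most of them did not carry the RNA of those cells. They are therefore called Cd3- or Nkg7-positive cells here. T/NK/ILC-like is kept for the 84 of them in clusters led by genes of T, NK or innate lymphoid cells. The values of the 4 genes of the rule and of the 7 genes of its limits fixed the choice and are given as a description.

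The cells came from bone marrow of ICR mice aged 7 to 8 weeks, stripped of lineage-positive cells with magnetic beads in both groups and captured on the BD Rhapsody platform. The hypoxia mice had lived in an altitude chamber for 13 days at 52.93 kPa, matched in the labels to 5000 m, with 19.5% oxygen in the chamber air. The control mice were killed when they arrived, so time in the facility, age and handling cannot be told apart from the chamber. No transgene or deletion is named in either group, the antibodies of the depletion kit and the number of mice are not given in the sources used here, and each group is 1 library. Without replicates no test was possible, and every interval printed is a 95% interval that covers counting error only.

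T cells recognise antigen with a receptor made of alpha and beta or of gamma and delta chains, and the Cd3 proteins carry its signal into the cell. NK cells and innate lymphoid cells lack that receptor and act through germline-encoded receptors and cytokines, with Gata3 among the regulators of T cells and of one innate lymphoid branch, and Il2rb as a shared part of the receptors for interleukin-2 and interleukin-15. Nkg7 encodes a membrane protein of cytotoxic granules that is best known from NK cells and killer T cells. Bone marrow holds few mature lymphocytes of these kinds, and it is also where the lymphoid-primed progenitors arise from which they descend.

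Total depth was 137504361 UMIs in 6406 hypoxia cells and 121415081 UMIs in 3956 control cells. Mitochondrial RNA was under the limit of 20% of UMIs in 6392 and 3950 cells, and the 23 cell names that both libraries share included none of a chosen cell in both. Levels are given as CPM, the UMIs of a gene per 1000000 UMIs summed over the named cells of a library. The chosen cells were shallower than the rest, with a median of 10504 UMIs in hypoxia and 13728 in control against 22222 and 33930 in the other kept cells. Doublets were called in 4 and 1 of the chosen cells.

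Nkg7 alone admitted most of the cells. No Cd3 UMI at all was found in 266 of the 306 hypoxia cells (86.9%) and in 312 of the 324 control cells (96.3%). At least 2 Cd3 UMIs were found in 33 hypoxia cells and 12 control cells, and 31 and 11 of these lay in T/NK/ILC-like clusters. Over the chosen cells, Nkg7 gave 1174 UMIs in hypoxia and 1363 in control, while Cd3e gave 160 and 46, Cd3g 86 and 28, and Cd3d 49 and 26. On GRCm38 the Nkg7 gene lies on chromosome 7 from 43437073 to 43438249, and the Cd3 genes are neighbours on chromosome 9, Cd3g from 44969572 to 44980431, Cd3d from 44981786 to 44987339 and Cd3e from 44998740 to 45009627. The median cell held 4 UMIs of the rule in hypoxia and 3 in control. Just inside the threshold, 91 and 93 cells held exactly 2 UMIs, and just outside it 98 and 116 cells within the same limits held exactly 1.

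**Figure D1:**
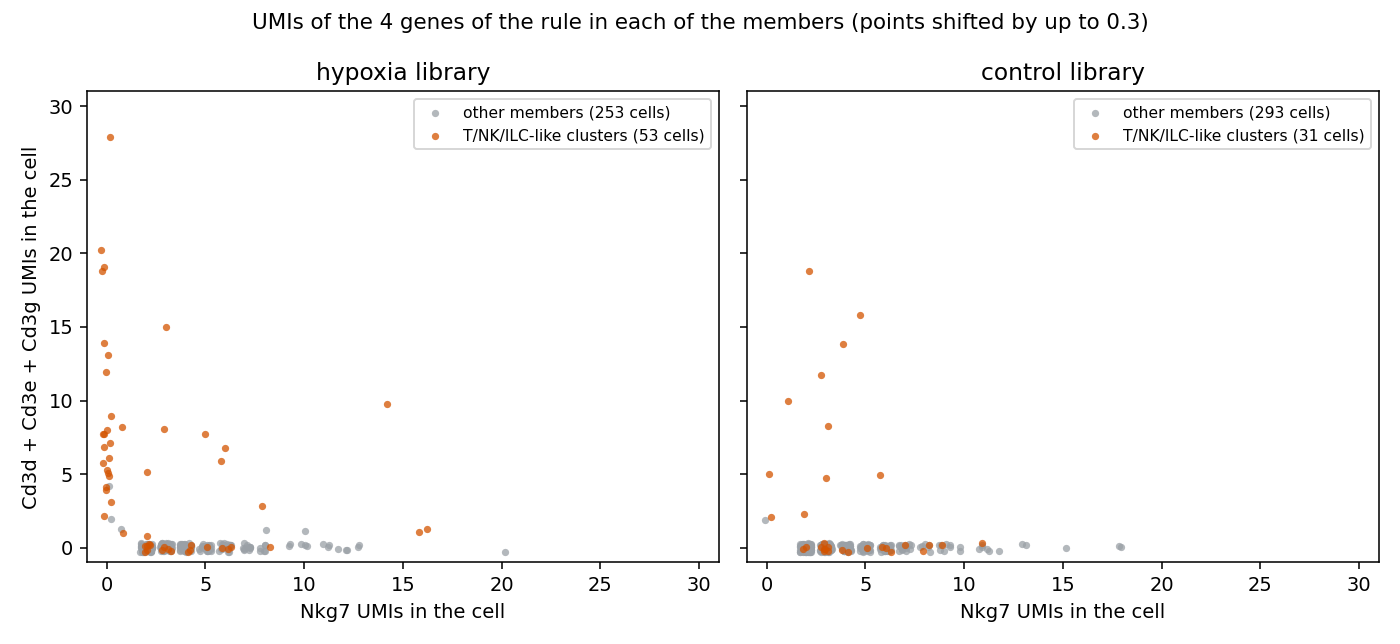
UMIs of Nkg7 (x axis) and of Cd3d, Cd3e and Cd3g together (y axis) in each chosen cell of the hypoxia (left) and control (right) library, with T/NK/ILC-like cells in orange. Most cells lie along the bottom, with Nkg7 and no Cd3, and nearly all cells with several Cd3 UMIs are T/NK/ILC-like.

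Nkg7 RNA was not limited to lymphocytes in this marrow. Among all kept cells with Elane above its limit (Elane encodes the elastase of neutrophil granules and marks granulocyte progenitors), at least 2 Nkg7 UMIs were found in 510 of 576 hypoxia cells (88.5%) and 272 of 279 control cells (97.5%), at 579 and 778 CPM. Among cells over the limit of Mcpt8 and Prss34, proteases of basophils, the counts were 318 of 638 (49.8%) and 139 of 234 (59.4%). Car1-positive cells, which are erythroid, gave 105 of 3135 (3.35%) and 65 of 2157 (3.01%), at 8.56 and 5.56 CPM. Cd3 RNA also appeared outside lymphocytes: of the cells over the limit of S100a8 and S100a9, 18 hypoxia and 15 control cells held at least 2 Cd3 UMIs. Nearly all of it was Cd3d, with 42 and 41 UMIs, against 0 of Cd3e in either library and 0 and 2 of Cd3g. The same cells held no UMI of Trac, Trbc1, Trbc2 or Trdc, and 2433 and 2909 UMIs of Ngp, a neutrophil granule gene.

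The chosen cells fell into 17 clusters when grouped on genes other than the 11 of the rule and its limits. Clusters were named only where at least 3 of their leading genes were markers of a class, and each name ends in -like. Megakaryocyte-like cells numbered 34 in hypoxia and 56 in control, led by Pf4, a chemokine of platelets. Granulocyte-monocyte progenitor-like cells, with the myeloid granule genes Mpo and Prtn3, numbered 35 and 51. Basophil and mast cell-like cells, with Ms4a2 and Cpa3, numbered 36 and 33. Eosinophil-like cells, with the granule genes Prg2 and Epx, numbered 25 and 14. Erythroid-like cells numbered 21 and 31, and lymphoid-primed progenitor-like cells, with Dntt, Flt3 and Il7r, 26 and 16. A further 76 and 92 cells stayed unnamed, and one of their clusters (22 of 24 cells from the control) was led by the heat shock gene Hspa1b.

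**Figure D2:**
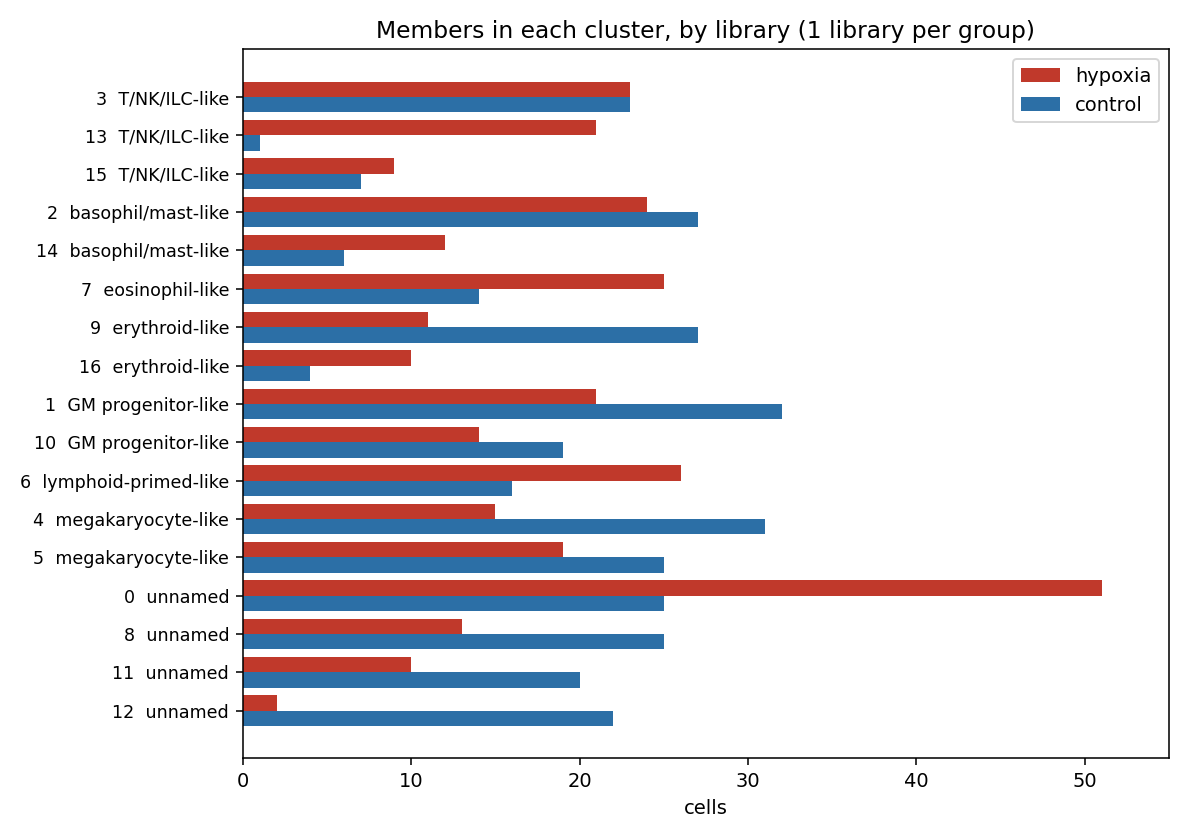
Number of chosen cells (x axis) in each of the 17 clusters (y axis) in the hypoxia (red) and control (blue) library. Cluster 3 held 23 cells of each library, cluster 13 held 21 hypoxia cells and 1 control cell, and cluster 12 held 2 and 22.

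**Figure D3:**
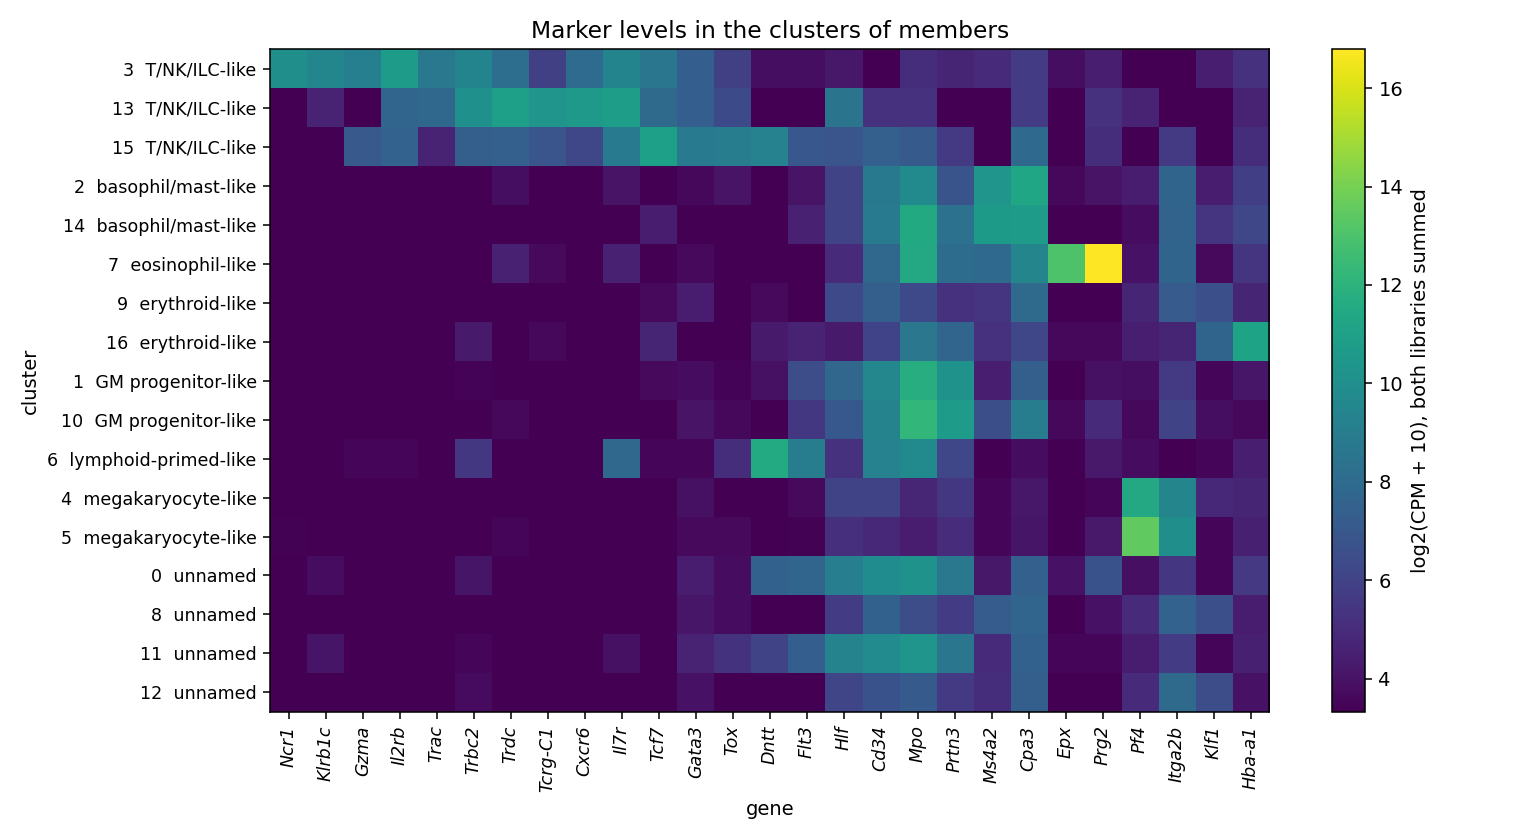
Level of 27 marker genes (x axis) in each cluster (y axis), as log2 of CPM with 10 CPM added, over both libraries summed. Receptor and regulator genes of T, NK and innate lymphoid cells are bright in clusters 3, 13 and 15 at the top, while Pf4, Mpo, Prg2, Cpa3 or Dntt stand out in other clusters.

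Nkg7 was spread over all of these classes. It stood at 567 CPM in hypoxia and 706 CPM in control in T/NK/ILC-like cells, at 509 and 514 CPM in eosinophil-like cells, and at 436 and 415 CPM in basophil and mast cell-like cells. In the other classes it lay between 138 CPM (erythroid-like) and 293 CPM (unnamed) in hypoxia and between 161 CPM (megakaryocyte-like) and 258 CPM (erythroid-like) in control. All of these cells but those admitted by Cd3 had been chosen for Nkg7, so these levels describe the choice.

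The marker genes that the rule did not use separated the T/NK/ILC-like cells from the rest. Il2rb stood at 923 CPM in hypoxia and 1180 CPM in control in T/NK/ILC-like cells, and in the other chosen cells 0 UMIs were counted in 253 hypoxia cells and 1 in 293 control cells. Gata3 stood at 174 and 336 CPM against 7.85 and 3.13 CPM. After thinning each cell to 2000 UMIs, which left out 6 shallow hypoxia cells, Il2rb was detected in 24 of 47 hypoxia (51.1%) and 23 of 31 control (74.2%) T/NK/ILC-like cells, and in 2 of 3131 and 2 of 2152 Car1-positive cells. Without thinning the shares were 64.2% and 87.1% of T/NK/ILC-like cells and 0.287% and 0.464% of Car1-positive cells, at median depths of 3403, 4048, 27022 and 41124 UMIs. Clusters were formed from these genes too, so the contrast is a description.

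The share of T/NK/ILC-like cells did not differ between the libraries beyond counting error, within wide limits. They made up 0.829% of kept hypoxia cells (0.622 to 1.08%) and 0.785% of kept control cells (0.534 to 1.11%), a ratio of 1.06 (0.666 to 1.703). By cluster, the ratio was 0.618 (0.3313 to 1.153) in cluster 3, 12.98 (2.087 to 536.7) in cluster 13 and 0.7945 (0.2633 to 2.51) in cluster 15. The shares are of marrow stripped of lineage-positive cells, and any difference between the libraries in that step was not tested. Cd3- or Nkg7-positive cells of all kinds were less frequent in hypoxia, at 4.79% (4.28 to 5.34%) against 8.20% (7.36 to 9.10%), a ratio of 0.584 (0.498 to 0.684). With no limits on the genes of other lineages the ratio was 0.941. With the Cd3 genes alone it was 1.7 (0.855 to 3.61), from 33 and 12 cells. The share of T/NK/ILC-like cells among the chosen cells was therefore 17.3% in hypoxia and 9.57% in control, and this difference in make-up lies under every comparison of summed RNA below. Cells with 10 or more UMIs of 11 T and NK receptor genes were also found outside the choice: 48 of 79 such hypoxia cells and 32 of 55 such control cells were among the chosen cells. Of those left out, 15 and 9 held under 2 UMIs of the rule and 10 and 12 passed the Irf8 limit alone, which a single Irf8 UMI can do in a shallow cell. UMIs of the 11 receptor genes were not limited to T/NK/ILC-like cells. A control basophil and mast cell-like cell held 14 of them and a hypoxia erythroid-like cell 11. Whether the cells left out were T or NK cells was not tested.

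Cluster 3 was made of NK cell and T cell transcriptomes in equal numbers of cells from both libraries. Ncr1, an activating receptor of NK cells on chromosome 7 from 4337724 to 4345164, stood at 814 CPM in hypoxia and 1341 CPM in control, with UMIs in 17 of 23 cells of each. Klrb1c, the NK1.1 antigen, stood at 576 and 866 CPM and Klrd1, the partner chain of the Nkg2 receptors, at 1022 and 829 CPM. Eomes and Tbx21, the T-box factors of NK cells and killer T cells, were found in 8 and 11 hypoxia cells and in 8 and 12 control cells. By UMI counts, 14 hypoxia and 15 control cells held at least 2 UMIs of Ncr1 and Klrb1c and fewer than 2 of Cd3, 3 and 4 held Cd3 without these, and 6 and 4 held both. Each of the 46 cells fell into one of these kinds. Depth was uneven, with medians of 3631 UMIs in hypoxia and 3706 in control. The deepest cells held 28111, 19531 and 18215 UMIs in hypoxia and 16007, 10608 and 10217 in control. Summed levels of cluster 3 therefore weigh these cells most, and the cluster without them was not tested. Trac, the constant region of the alpha chain, stood at 418 and 410 CPM. Gzma, a granule protease, stood at 511 and 596 CPM but came from only 4 and 3 cells, and Prf1, the pore-forming protein of cytotoxic granules, gave 4 and 12 UMIs.

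Cluster 13 carried gamma delta receptor RNA and several genes known from the gamma delta T cells that make interleukin-17, and 21 of its 22 cells came from the hypoxia library. Its defining genes describe it and are no finding. All 21 hypoxia cells held at least 2 Cd3 UMIs, with a median of 8 and at most 28, and 19 of them held no Nkg7. Trdc, the constant region of the delta chain (chromosome 14, 54142851 to 54148868), stood at 1965 CPM and was found in 18 of the 21 cells. Tcrg-C1, a gamma chain constant region (chromosome 13, 19214103 to 19217024), stood at 1325 CPM, and Trac UMIs were found in 11 cells. Reads of the gamma constant regions may be split between near-identical copies. Il7r, the receptor chain for interleukin-7, stood at 1849 CPM and was found in every cell, as were Maf at 2111 CPM and Ccr2 at 1907 CPM. Sox13, a regulator of this kind of gamma delta T cell, was found in 16 of the 21 cells, and Il23r, the receptor that drives it, in 7. Ncr1, Gzma, Ccl5 and Eomes had no UMI. Il17a gave 2 UMIs, both in 1 cell, and Il17f none.

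Cells were also counted by genes seen in cluster 13, without the cluster labels. Over all kept cells, at least 2 UMIs of Trdc, Tcrg-C1 and Tcrg-C2 together with at least 2 of Cd163l1, 5830411N06Rik and Sox13 were found in 21 of 6392 hypoxia cells, 0.329% (0.204 to 0.502%). None of the 3950 control cells held them, with an exact upper limit of 0.0934% for the share. With the counting error of both libraries, the exact lower limit of the ratio was 3.22. These genes were picked after the cluster had been seen, so the count is not independent support. All but 1 of these 21 cells lay within the choice and in T/NK/ILC-like clusters. With 1 library per group, a cluster that is nearly all of 1 library may be a feature of that library. Without cluster 13, T/NK/ILC-like cells numbered 32 and 30, a ratio of 0.659. Trdc UMIs were also found in 0.894% of hypoxia and 0.232% of control Car1-positive cells after thinning, and in 7.88% and 4.64% before.

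Cluster 15 held 9 hypoxia and 7 control cells with regulators of early T and innate lymphoid development. Tcf7, a factor of the earliest T and innate lymphoid precursors, stood at 2375 and 1619 CPM and Tox at 862 and 251 CPM. Gata3 was found in every one of the 16 cells, at 352 and 544 CPM. Dntt, the enzyme that adds bases at receptor joints and marks lymphoid progenitors, stood at 422 and 768 CPM, and Ccr9, a homing receptor of thymus-seeding cells, at 229 and 447 CPM. Rag1 had no UMI, and Cd3 UMIs numbered 4 and 7. Ncr1 and Klrb1c had no UMI either, and 8 hypoxia and 5 control cells held fewer than 2 Cd3 UMIs. Progenitor genes were also found, with Cd34 at 163, Mpo at 132 and Flt3 at 117 CPM over both libraries. UMIs of Mki67 and Top2a, genes of dividing cells, numbered at least 2 in none of the hypoxia cells and in 4 of the control cells.

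**Figure D4:**
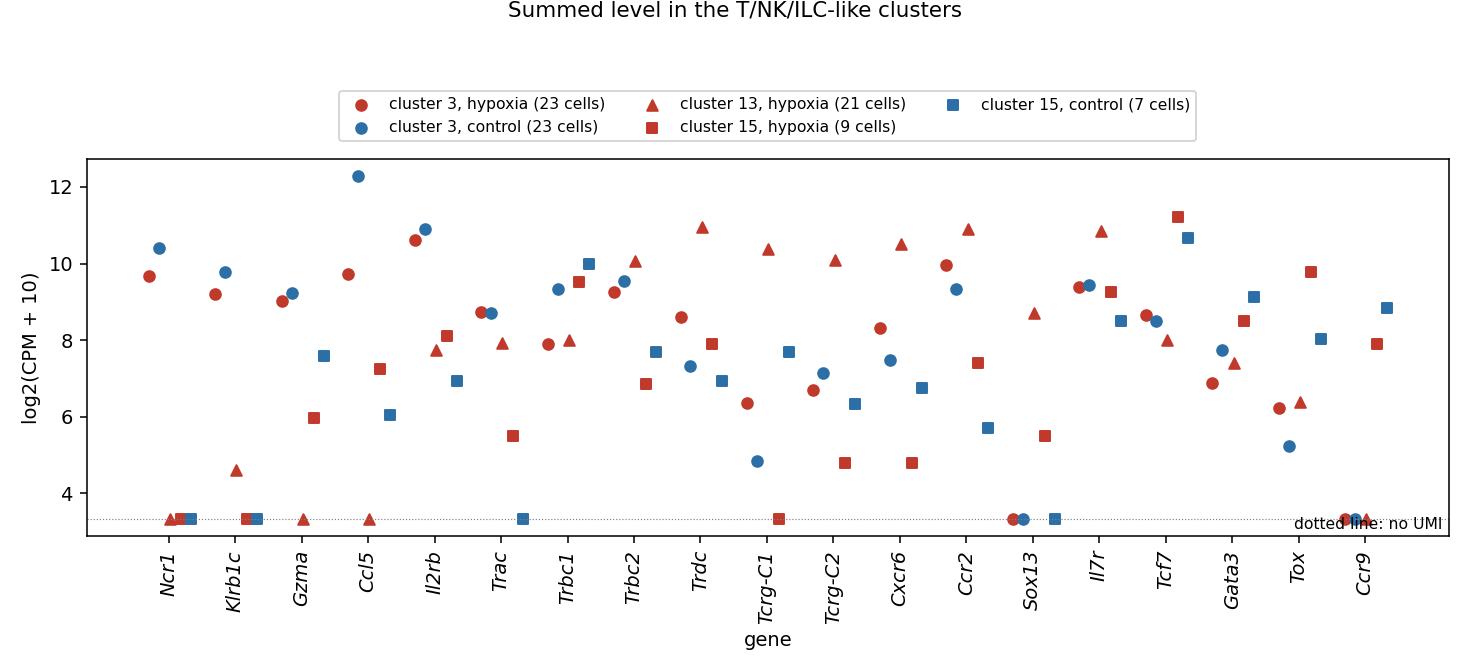
Level of 19 genes (x axis) in the T/NK/ILC-like clusters, as log2 of CPM with 10 CPM added (y axis), for hypoxia (red) and control (blue) cells of cluster 3 (circles), 13 (triangles, hypoxia only) and 15 (squares). Ncr1 is found in cluster 3 alone, Trdc and Tcrg-C1 are highest in cluster 13, Tcf7 and Tox are highest in cluster 15, and Ccl5 of cluster 3 is lower in hypoxia.

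Genes of mature helper and killer T cells were scarce. The marrow had been stripped of lineage-positive cells, and how far that step removed mature T cells was not tested. Over the 84 T/NK/ILC-like cells, Cd4 gave 1 UMI, Cd5 1 UMI, Foxp3 and Cd40lg none, and Cd8a 2 UMIs in hypoxia and 8 in control. The cytokines of type 2 innate lymphoid cells, Il5 and Il13, had no UMI, and neither had Areg. Of the markers of other lineages, the 6 megakaryocyte genes summed to 7.56 CPM in hypoxia and 33.1 CPM in control and the 6 eosinophil genes to 37.8 and 0 CPM. The 8 basophil and mast cell genes summed to 230.7 and 44.1 CPM, of which Cpa3 gave 162.6 and 0 CPM, the 8 erythroid genes to 306 and 243 CPM, the 9 stem cell genes to 253 and 331 CPM and the 9 dendritic cell genes to 185 and 270 CPM. The part of these RNAs in the comparisons that follow was not tested. The 8 monocyte genes summed to 1199 and 678 CPM, of which Ccr2, which T and NK cells also carry, gave 1047 and 408 CPM, while Lyz2 and Fn1 had no UMI. The 12 B lineage genes summed to 389.5 and 16.5 CPM, nearly all of it Blk, while Cd79a and Pax5 had no UMI.

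Between the libraries, the T/NK/ILC-like cells differed in chemokine RNA, with Ccl5 and Xcl1 lower in hypoxia and Ccl3 and Ccl4 higher in a few cells. For this comparison and those that follow, log2 ratios are of hypoxia over control with 10 CPM added on both sides, genes with at least 50 UMIs were compared (20 UMIs in the counts within cluster 3 alone), and a gene counts as higher or lower from 1.5-fold. Ccl5, a chemokine of NK and memory T cells, stood at 469 CPM in hypoxia and 2983 CPM in control, a log2 ratio of -2.64 (ratio 0.157, 0.128 to 0.191). Within cluster 3 alone, 13 of 23 hypoxia cells and 22 of 23 control cells held a Ccl5 UMI, with 116 and 537 UMIs, and the log2 ratio was -2.57. Xcl1, a chemokine that NK cells release to attract dendritic cells, stood at 106 and 436 CPM, a log2 ratio of -1.94 (ratio 0.243, 0.152 to 0.378) and -1.82 within cluster 3, where 15 and 16 cells held it. Both genes were thus lower over all T/NK/ILC-like cells and within the cluster that holds most of their UMIs. Ccl3 and Ccl4, chemokines that attract T cells and monocytes, were higher within cluster 3, at 309.6 against 37.2 CPM (2.76, ratio 8.31, 3.02 to 31.9) and at 216 against 46.6 CPM (1.999, ratio 4.64, 1.78 to 15.3). Their UMIs were few and came from 3 and 2 hypoxia cells, 43 and 30 UMIs, against 4 and 5 UMIs in control.

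Other cytotoxic genes of the T/NK/ILC-like cells did not all follow. Of the 16 genes listed as cytotoxic effectors, 6 could be compared, of which 0 were higher and 3 lower (Ccl5, Xcl1 and Ctsw, the last at -0.60), with a median of -0.59. Ccl3 and Ccl4, with 48 and 40 UMIs there, stayed under the minimum. Within cluster 3, 10 of the 16 could be compared, of which 2 were higher (Ccl3 and Ccl4) and 2 lower, with a median of -0.04. Over all T/NK/ILC-like cells, Gzma was at -0.58 and rested on few cells, and Serpinb9, an inhibitor of granzyme, at 0.30. In this comparison 1797 genes were compared, of which 202 (11.2%) were higher and 199 (11.1%) lower, so 1 gene past 1.5-fold in a short list is near the background. The median over all 1797 genes was -0.01. Within cluster 3, 440 of 2563 genes (17.2%) were higher and 391 (15.3%) lower. Over all T/NK/ILC-like cells, the median of the NK receptor list was 0.03, with 1 gene higher and 3 lower of 9. That of the T cell receptor list was 0.24, with 3 higher and 1 lower of 7. The lower one was Trbc1, a beta chain constant region, at -1.16. The 3 that were higher, Trdc (2.44), Tcrg-C1 (2.0) and Tcrg-C2 (1.58), are gamma delta chains and were at 381.6 against 149.0, 72.0 against 18.6, and 93.6 against 130.3 CPM within cluster 3.

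Immediate early genes, which also answer to the stress of taking tissue apart, were lower in hypoxia T/NK/ILC-like cells. Of 17 that could be compared, 12 were lower and none higher, with a median of -0.74. Junb, a subunit of the AP-1 factor, stood at 189 CPM in hypoxia and 623 CPM in control, a log2 ratio of -1.67 (ratio 0.303, 0.213 to 0.427), and at -1.601 within cluster 3, where 14 of 19 of these genes were lower and 1 higher. Klf6 stood at 390 and 811 CPM (-1.04) and Dusp2, a phosphatase of activated lymphocytes, at 231 and 507 CPM (-1.10). Zfp36, a regulator of RNA decay, stood at 616 and 474 CPM (0.37), short of 1.5-fold. Of 8 genes compared from a list of the glucocorticoid receptor and its response, 5 were lower and 1 higher, at a median of -0.80. The lowest ratios were those of Fkbp4, Cxcr4, Nr3c1 (the receptor gene itself) and Fkbp5. Il7r, the higher one, stood at 957 and 563 CPM, a log2 ratio of 0.76, but at 662 and 680 CPM within cluster 3.

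A few genes were present in the T/NK/ILC-like cells of the hypoxia library and near absent in those of the control. They were chosen after their values were seen. Blk, a kinase known from B cells and from gamma delta T cells, gave 100 UMIs in 18 hypoxia cells, all of cluster 13. It gave none in control, with an exact lower limit of 18.2 for the ratio. Ms4a4b, a membrane protein of T and NK cells, stood at 299 and 5.52 CPM, from 79 UMIs in 25 cells against 1 UMI. Ly6a, the Sca-1 antigen, stood at 454 and 49.6 CPM, from 29 cells against 3, of which 1 held 66.7% of the control UMIs. Within cluster 3, where Blk had no UMI, Ms4a4b was at a log2 ratio of 4.69 and Ly6a at 3.21. In the kept cells outside the choice, Ms4a4b stood at 4.57 and 0.97 CPM (0.41) and Ly6a at 7.88 and 2.86 CPM (0.48). Blk was at 0.02 there. Coro2a, an actin-binding protein, stood at 219 and 5.52 CPM, and its log2 ratio was 3.89 here, 2.35 in the other chosen cells and 1.57 in the kept cells outside the choice. Ms4a4b and Coro2a are among 13 genes listed because they differ between the whole libraries.

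Summed over all Cd3- or Nkg7-positive cells, the libraries were compared at 10057 genes. At least 1.5-fold higher in hypoxia were 273 of them (2.71%) and at least 1.5-fold lower 170 (1.69%), around a median log2 ratio of 0.02. Scaling by TMM factors in place of totals turned this split to 216 higher and 235 lower, with a median of -0.03. In such sums, more cells of a type and more RNA per cell cannot be told apart. Each gene is therefore given also as a cluster-weighted log2 ratio, in which 14 clusters with at least 5 cells in each library take the same share in both, which leaves out clusters 12, 13 and 16. Cluster-weighted, 205 genes (2.04%) were higher and 163 (1.62%) lower, and in the kept cells outside the choice 394 of 13966 (2.82%) were higher and 158 (1.13%) lower. The 24 genes that follow have the largest ratios in either direction among genes that passed limits on UMIs, CPM and share of cells. For them the direction given is that of all chosen cells.

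For several genes the ratio was smaller cluster-weighted, a ratio that leaves out cluster 13 with its S100a6, Trdc and Ccr2 RNA. S100a6 stood at 81.8 CPM in hypoxia and 10.2 CPM in control, a log2 ratio of 2.18, and at -0.016 cluster-weighted, and 279 of its 324 hypoxia UMIs lay in cluster 13. Trdc stood at 52.8 and 4.92 CPM (2.07, and 0.68 weighted), and Ccr2, a chemokine receptor of monocytes and of many T and NK cells, at 75.2 and 20.04 CPM (1.505, and 0.40 weighted, and -0.053 outside the T/NK/ILC-like cells). Prg2, the major basic protein of eosinophil granules, stood at 7476 and 2156 CPM (1.79, and 0.74 weighted). All 6 eosinophil markers were compared, 5 of them higher, and their summed level was 8817 CPM in hypoxia and 2791 CPM in control with none at 0. At least 2 UMIs of them were found in 33 hypoxia and 15 control cells. Ear1, an eosinophil ribonuclease, stood at 340 and 7.37 CPM (4.33, and 3.65 weighted), while its close relative Ear2 stood at 158 and 239 CPM (-0.56). The Ear genes are near-identical copies, so reads may be split between them. Mt2, a metallothionein, stood at 115 and 32.1 CPM (1.57, 0.71 weighted), and at -0.47 in the kept cells outside the choice. Lsp1, a leukocyte actin-binding protein, stood at 108 and 34.2 CPM (1.42, 0.67 weighted).

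Some class I genes of antigen presentation were higher in hypoxia, also with the make-up held equal. H2-D1, a classical class I molecule on chromosome 17 from 35262730 to 35267499, stood at 1790 CPM in hypoxia and 504 CPM in control, a log2 ratio of 1.81 (ratio 3.55, 3.40 to 3.71) and 1.75 weighted. It was found in all 306 hypoxia cells and in 316 of the 324 control cells. The ratio was 1.56 in T/NK/ILC-like cells, 1.0 within cluster 3 and 2.10 in the kept cells outside the choice. H2-Q7 and H2-Q6, non-classical class I genes, stood at 86.6 against 0.57 CPM and 72.5 against 1.32 CPM, from 3 and 7 control UMIs. H2 genes vary between mice and resemble each other, so these values may hold reads assigned to the wrong copy. B2m, the light chain of class I molecules, lies elsewhere and stood at 1766 and 1212 CPM (0.54), short of 1.5-fold, and at 0.14 in T/NK/ILC-like cells. Of 18 class I genes compared, 8 were higher and none lower, at a median of 0.54 (8 also cluster-weighted, at 0.50), beside 10 of 19 and a median of 0.64 in the kept cells outside the choice. In T/NK/ILC-like cells 3 of 8 were higher and none lower, at a median of 0.27, and within cluster 3 the median was 0.06 with 5 of 14 higher and 1 lower. Of the 4 genes of that list outside the H2 region 1 was higher. Of 4 class II genes, 2 were higher, at a median of 0.56, and 0 cluster-weighted. Of 30 interferon response genes, 8 were higher and none lower, at a median of 0.37, against 6 of 42 and 0.29 outside the choice. In T/NK/ILC-like cells 0 of 5 were higher and 1 lower, and within cluster 3 it was 2 higher and 2 lower of 9, at a median of 0.02.

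Ccl9, a chemokine of myeloid cells, stood at 308 CPM in hypoxia and 103 CPM in control, a log2 ratio of 1.497 and 1.36 weighted. Coro2a (121 and 13.99 CPM, 2.45, 2.41 weighted) and Gdpd3, a phosphodiesterase of lysophospholipids (74.98 and 16.4 CPM, 1.68, 1.59 weighted), were higher by nearly as much with the make-up held equal. Msh5, a gene of meiotic recombination, and Cwc22, a splicing factor, were the opposite, at 2.27 and 71.3 CPM (-2.73) and at 49.99 and 286 CPM (-2.30). The ratios of these 4 genes had the same sign in the kept cells outside the choice, at 1.57, 1.60, -0.78 and -1.79. They belong to 13 genes listed because they differ between the whole libraries, so the shared sign is not independent.

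Immediate early genes were lower across the chosen cells. Of 25 compared, 17 were lower and none higher, at a median of -0.78 and -0.95 cluster-weighted, beside a median of -0.07 with 3 of 30 lower in the kept cells outside the choice. Fos, the partner of Jun in AP-1, stood at 213 CPM in hypoxia and 563 CPM in control, a log2 ratio of -1.36 (-1.68 weighted) against -0.27 outside the choice, though at 0.51 in the cells with 2 Cd3 UMIs. Fosb stood at 53.8 and 171 CPM (-1.51) against 0.08 outside, and Junb at 50.7 and 157 CPM (-1.46) against -0.62. Rgs1, a brake on chemokine signalling, stood at 146 and 365 CPM (-1.26) against -0.45, and Ier2 at 149 and 344 CPM (-1.15) against -0.75. All 5 were lower among the chosen cells by more than outside them. They were named for having some of the lowest ratios in the chosen cells, so this is no independent support. The difference between the 2 sets of cells was not tested, and their depths and make-up differ.

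Several chaperones were lower as well, inside and outside the choice. Hsph1, a co-chaperone of the Hsp70 proteins, stood at 75.5 CPM in hypoxia and 400 CPM in control, a log2 ratio of -2.26 (ratio 0.189, 0.166 to 0.213), beside -2.30 in the kept cells outside the choice and -1.44 in T/NK/ILC-like cells. Dnaja1 stood at 315 and 785 CPM (-1.29) and Hsp90aa1, the inducible Hsp90, at 1213 and 2609 CPM (-1.10). Of 23 chaperones compared, 10 were lower and none higher, at a median of -0.43, beside 12 of 24 and -0.59 outside. Within T/NK/ILC-like cells 7 of 18 were lower and 1 higher, at -0.35, but within cluster 3 the counts were 4 lower and 6 higher of 19, at 0.08. Hspa1b, the inducible Hsp70, stood at 1.26 and 61.4 CPM (-2.66), with UMIs in 3 hypoxia and 58 control cells, but at 0.18 in the T/NK/ILC-like cells, where it gave 3 UMIs in all. Slamf1, a receptor of stem and lymphoid cells, stood at 19.4 and 55.6 CPM (-1.16, -0.86 weighted).

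Genes that hypoxia-inducible factors are known to switch on were not shifted as a list over all chosen cells. Of 23 compared in all chosen cells, 1 was higher and 2 were lower, at a median of 0.01. Pdk1, which holds pyruvate back from the mitochondrion, was the higher one at 50.7 CPM in hypoxia and 26.8 CPM in control (0.72), and Egln3, an oxygen-sensing hydroxylase, stood at 56.3 and 38.2 CPM (0.46). In T/NK/ILC-like cells only 2 of the 29 listed genes could be compared, with 0 higher and 0 lower. Within cluster 3 it was 0 higher and 2 lower of 3, at -0.63, too few to describe the list there. Of 18 glycolysis genes none passed 1.5-fold in either direction, at a median of -0.05. In T/NK/ILC-like cells 2 of 8 were higher and none lower, at a median of 0.42. Within cluster 3 it was 5 of 10, at 0.66, in sums that weigh its few deepest cells most. All 46 genes of nuclear-encoded oxidative phosphorylation stayed within 1.5-fold in the chosen cells, at a median of -0.09, and so did the 13 mitochondrially encoded genes, at 0.20. Cell cycle genes of G2/M were at a median of -0.09 with 1 of 31 lower, and in T/NK/ILC-like cells at -0.54 with 5 of 13 lower. Within cluster 3 it was 6 higher and 2 lower of 24, at 0.07, and cycling cells of cluster 15 numbered 0 of 9 in hypoxia and 4 of 7 in control. None of 26 S phase genes passed 1.5-fold in all chosen cells. In T/NK/ILC-like cells 0 were higher and 1 lower of 10 S phase genes, and within cluster 3 it was 8 higher and 1 lower of 18, at 0.50. Beside these counts of list genes, 11.2% of all genes compared were higher and 11.1% lower in T/NK/ILC-like cells. Within cluster 3 the shares were 17.2% and 15.3%. In T/NK/ILC-like cells a single control cell held 78.8% of the control UMIs of Cenpf, a kinetochore gene.

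**Figure D5:**
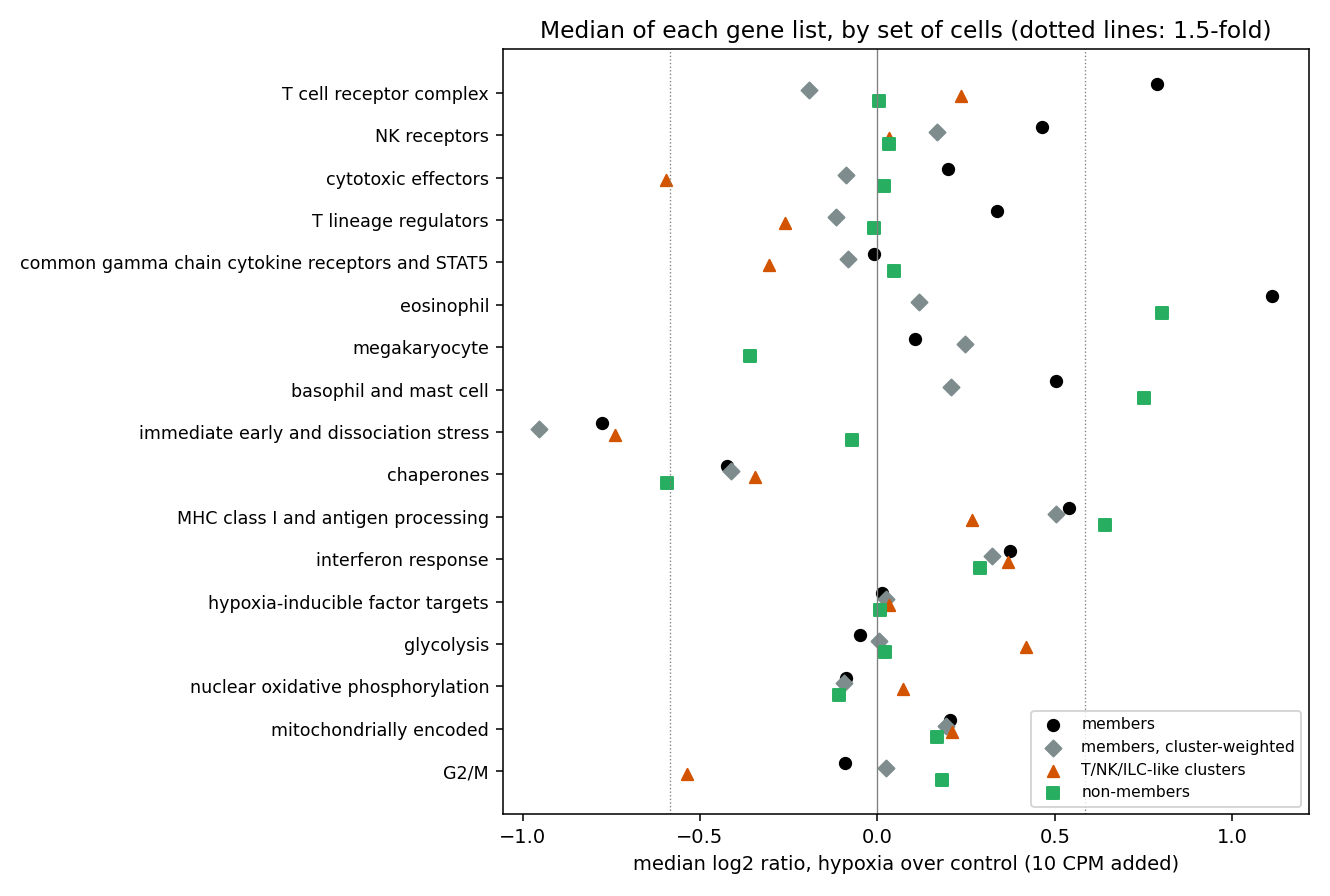
Median log2 ratio of hypoxia over control (x axis, 10 CPM added) for 17 gene lists (y axis), in all chosen cells (members, black circles), with cluster make-up held equal (grey diamonds), in T/NK/ILC-like clusters (orange triangles) and in the kept cells outside the choice (non-members, green squares). The grey diamonds leave out clusters 12, 13 and 16. The T cell receptor and eosinophil lists lie right of the 1.5-fold line in all chosen cells and left of it with the make-up held equal (0.79 and -0.19, 1.11 and 0.12), and immediate early genes lie left of it in all 3 summaries of the chosen cells.

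The medians of the lymphoid identity lists were lower or negative in the cluster-weighted ratios. That weighting leaves out cluster 13, with 21 hypoxia cells and 1 control cell, and so its gamma delta receptor RNA. How much of the fall comes from leaving out those cells was not tested. In the T cell receptor list, without the Cd3 genes of the rule, 5 of 7 genes were higher and none lower in all chosen cells (median 0.79), but 1 was higher and 1 lower cluster-weighted (median -0.19). Among NK receptors 5 of 13 were higher, for a median of 0.46 and of 0.17 weighted. Among T lineage regulators it was 2 of 8, for a median of 0.34 and of -0.12 weighted. Il7r was at 1.27 (85.6 and 29.5 CPM) and 0.17 weighted, and Cxcr6, a homing receptor of tissue lymphocytes, at 1.505 (36.1 and 6.24 CPM) and 0.24 weighted. Il2rb stood at 61.6 and 40.6 CPM in the sum (0.50) and Gata3 at 18.9 and 14.6 CPM (0.24), and within T/NK/ILC-like cells at -0.35 and -0.91, of which only Gata3 passed 1.5-fold. Within cluster 3 the values were -0.31 for Il2rb and -0.86 for Gata3, the latter from 15 and 22 UMIs. Of 16 genes of the common gamma chain receptors and their STAT5 pathway, 1 was higher and 1 lower, at a median of -0.01.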

How the data were processed

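The authors deposited raw counts of UMIs, 1 table of cells and genes for each library, not normalized. Per the file headers, the tables came from BD's WTA Rhapsody pipeline (version 1.7.1) and refer to GRCm38 and GENCODE vM19; the submitters' processing notes add Bowtie2. The cell calling step is not described in the labels or headers. A gene missing from 1 table was taken as 0 there.

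Cells under 20% mitochondrial UMIs were kept. Members held at least 2 UMIs of the rule and, per 10000 UMIs, under 5 of Car1, 10 of Elane, 1 of Irf8, 20 of Mcpt8 and Prss34, and 50 of S100a8 and S100a9. Doublets were called with Scrublet (seed 0), which marked 1.75% and 0.834% of cells, and were kept. Members were clustered with Leiden (resolution 1.0) on 20 components of 2000 variable genes and 10 neighbours, without the genes of the rule and limits. A name needed at least 3 markers among 30 leading genes. Counts were summed per library and set of cells. Shares have exact Clopper-Pearson and ratios exact binomial 95% intervals. UMIs are treated as independent, so variation between cells, mice and preparations is not covered. The ratio calculation was tested on simulated data.

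The members, lists and rules were chosen with earlier results of these data known. Named genes are the markers, the list genes with most UMIs or largest ratios, and the 12 highest and 12 lowest log2 ratios among genes with at least 50 UMIs, 50 CPM in 1 library and UMIs in 10% of the members where higher. Left out of these highest and lowest were the genes of the rule, Y-linked genes, Xist and unnamed gene models. Clusters, cluster weighting and the panels of receptor genes were added after the data were seen. Of 591 list genes, 588 were in the tables. Coordinates are from GENCODE on GRCm38, a later release than the authors'. Python 3.11.15, scanpy 1.11.5 and, for TMM factors, edgeR were used.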

Additional observations from a re-analysis of the deposited data

How the results depend on the processing

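No paired analysis was possible because each group has 1 library, and for the same reason no replicate could be left out. The share of Cd3- or Nkg7-positive cells, a hypoxia to control ratio of 0.584, stayed between 0.539 and 0.614 under 7 alternatives (1 or 4 UMIs, thinning to 5000 UMIs, other mitochondrial limits, doublets out, Nkg7 alone). It moved to 0.941 without the limits on other lineages, to 1.7 (0.855 to 3.61) with the Cd3 genes alone and to 1.06 in T/NK/ILC-like clusters alone. The ratio of T/NK/ILC-like cells, 1.06, was between 0.885 and 1.7 under other clusterings or UMI rules, within its own interval, and 0.659 without cluster 13.

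The number of genes at least 1.5-fold higher, 273, moved to 670 with 1 CPM added, 54 with 50 CPM added, 180 in cells with 2 Cd3 UMIs and 425 in members with 2 UMIs of a T or NK list. The number lower, 170, moved to 442, 49 and 286 under the first 2 and the last of these. Under the other alternatives both counts stayed within 1.5 times. Of the 24 genes named for their ratios, 18 kept their direction under all 17 alternatives. Those that did not were Mt2 (-0.10), Fos (0.51) and Slamf1 (0.59) in cells with 2 Cd3 UMIs, Hspa1b (0.18) and Slamf1 (0.46) in T/NK/ILC-like cells, Ccr2 (-0.053) outside them, and S100a6 (-0.016) cluster-weighted. The T cell receptor list reversed to -0.48 in Nkg7 members with under 2 Cd3 UMIs, -0.61 outside the T/NK/ILC-like clusters (where only 1 of its genes, Trbc1, reached 50 UMIs) and -0.19 cluster-weighted. The globin list, -1.67 in all members, reversed to 1.81 with at least 4 UMIs of the rule, 2.15 in members with 2 UMIs of a T or NK list and 1.14 cluster-weighted, over 3 genes, and the cause was not tested. Depth limits the T/NK/ILC-like cells most: 264443 and 181338 UMIs in all, with 3 UMIs equal to 11.3 and 16.5 CPM.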
